A study of Mus musculus with 6 samples.

Results

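Assembly factors of the 60S ribosomal subunit were described in an immortalized line of mouse fibroblasts (NIH/3T3) after knockdown of the glycolytic enzyme Aldoa. The 55 genes were taken by symbol from a list of nucleolar, nuclear and cytoplasmic factors that act on the large subunit and are not parts of the finished ribosome. All 55 were found among the 18001 genes of the expression table. The siAldoa cells received 4 pooled siRNAs that target Aldoa and the siCtrl cells pooled non-targeting siRNAs, and both groups were collected 48 h later. Poly(A) RNA was sequenced from 3 libraries per group, labelled as replicates 1 to 3. An untransfected group was not analysed here, so both groups share the transfection. Values are CPM (read counts scaled by the authors to the effective, normalized size of each library). A log2 fold change is the difference between the group means of log2(CPM + 1), siAldoa minus siCtrl, ± its standard error (SE, n = 3 per group). A gene was called when its p-value in limma, two-sided and adjusted by Benjamini-Hochberg over all 18001 genes, was under 0.05. In bulk RNA, fewer cells of one kind and less RNA of a gene per cell cannot be told apart.

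The large subunit is built around a long precursor RNA that is transcribed, folded, modified and cut in the nucleolus. RNA helicases and early nucleolar factors compact the first particles, the PeBoW complex and its neighbours prepare the removal of a spacer, and the 5S RNP is docked as a separate block. The rixosome and large AAA-type ATPases then remodel the nuclear particle, GTPases act as checkpoints, and export factors that leave in the cytoplasm are recycled before the subunit can join a 40S subunit. These genes are strongly expressed in dividing cells, fibroblast lines included.

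Sequence upstream of the annotated start was read for 7 members whose transcripts were lower in siAldoa, chosen after their values were seen. Members that move together raise the question of which promoter letters they share. These 7 do not stand for the called members as a set. Motif counts for members called and not called are given below. The stretches come from RefSeq on GRCm38.p6 and are printed 5′ to 3′ on the strand of the gene, with annotated untranslated bases left out. Capitals mark the E-box CACGTG, the ETS core CCGGAAG or CTTCCGG on the other strand, and the NRF1 core GCATGCGC or GCGCATGC on the other strand. Pelp1, Tex10 and Wdr18 form the core of the rixosome, Nop2 is an rRNA methyltransferase, Nmd3 and Lsg1 act at export and release, and Ddx56 is the helicase with the lowest fold change, with no match in this stretch.
Ddx56 (chr11:6267773-6267979, minus strand): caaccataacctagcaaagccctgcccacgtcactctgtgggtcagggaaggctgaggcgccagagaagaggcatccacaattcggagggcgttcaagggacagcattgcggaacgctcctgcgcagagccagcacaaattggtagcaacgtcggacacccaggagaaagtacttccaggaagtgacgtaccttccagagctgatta
Pelp1 (chr11:70410032-70410281, minus strand): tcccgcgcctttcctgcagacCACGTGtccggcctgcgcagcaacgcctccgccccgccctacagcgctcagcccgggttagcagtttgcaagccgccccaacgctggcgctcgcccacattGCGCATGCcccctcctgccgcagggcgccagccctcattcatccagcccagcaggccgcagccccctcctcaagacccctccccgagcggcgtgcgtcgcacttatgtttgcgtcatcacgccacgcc
Tex10 (chr4:48473464-48473713, minus strand): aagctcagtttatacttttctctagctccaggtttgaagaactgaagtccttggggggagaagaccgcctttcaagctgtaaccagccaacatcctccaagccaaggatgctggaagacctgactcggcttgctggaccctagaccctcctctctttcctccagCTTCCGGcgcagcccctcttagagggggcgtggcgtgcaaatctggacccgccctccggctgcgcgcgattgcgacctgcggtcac
Wdr18 (chr10:79959902-79960151, plus strand): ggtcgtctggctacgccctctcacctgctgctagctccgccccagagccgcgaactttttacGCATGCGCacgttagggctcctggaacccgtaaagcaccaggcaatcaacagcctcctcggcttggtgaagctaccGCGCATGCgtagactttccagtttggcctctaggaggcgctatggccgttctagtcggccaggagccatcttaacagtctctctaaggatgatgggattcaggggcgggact
Nop2 (chr6:125131633-125131882, plus strand): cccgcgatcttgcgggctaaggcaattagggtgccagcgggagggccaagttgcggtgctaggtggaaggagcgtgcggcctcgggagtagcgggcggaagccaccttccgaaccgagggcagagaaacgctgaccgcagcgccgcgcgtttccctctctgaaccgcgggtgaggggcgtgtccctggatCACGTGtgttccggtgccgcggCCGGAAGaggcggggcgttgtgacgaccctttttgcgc
Nmd3 (chr3:69721805-69721984, plus strand): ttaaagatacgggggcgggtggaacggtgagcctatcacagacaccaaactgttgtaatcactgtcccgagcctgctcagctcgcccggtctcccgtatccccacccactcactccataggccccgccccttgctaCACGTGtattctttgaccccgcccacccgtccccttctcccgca
Lsg1 (chr16:30587593-30587839, minus strand): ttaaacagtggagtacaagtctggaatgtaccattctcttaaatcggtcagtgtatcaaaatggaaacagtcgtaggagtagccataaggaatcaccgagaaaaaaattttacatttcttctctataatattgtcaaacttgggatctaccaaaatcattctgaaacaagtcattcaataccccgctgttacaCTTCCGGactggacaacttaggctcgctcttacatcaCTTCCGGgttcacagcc

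At least 1 region from 250 bases before to 50 after a start was available for 44 of the 55 members. The motifs were searched in each region on both strands. A gene was counted when any of its regions matched. The share of all regions counts each region separately, so it is not a like measure. The E-box was found in 10 of the 44 (22.7%), against 11.0% of the 11192 genes of the table with such a region and 7.15% of all 32851 regions. The ETS core was found in 18 of the 44 (40.9%), against 17.8% and 8.86%, and the NRF1 core in 3 (6.82%), against 5.41% and 2.71%. The genes of the table include those at low levels, while 54 of the 55 members had a mean of at least 25 CPM. Motif shares among genes of like level were not computed. No motif contains another, and a match gives letters only, not a bound site. No test was made of the motifs against the calls. The E-box was present in 5 of 25 members called lower and 5 of 19 not called, and the ETS core in 10 of 25 and 8 of 19. The median log2 fold change was -0.17 in members with an E-box and -0.21 in those without, and -0.20 both with and without the ETS core. All 3 members with the NRF1 core (Ftsj3, Pelp1 and Wdr18) were among those called lower, with a median log2 fold change of -0.28 against -0.19 for those without. The Nop2 stretch holds an E-box and an ETS core, which begin at positions -60 and -38 from the start, Wdr18 has 2 NRF1 matches, and Lsg1 has 2 ETS matches before the start and 1 after it. The E-box of Tex10 lies across the start and is therefore not in its printed stretch.

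Depth was even, with 3692341 to 3771129 reads per library recovered from the CPM values, and 3 reads corresponded to 0.786 to 0.822 CPM. Aldoa itself, the siRNA target, stood at 522, 536 and 545 CPM in siCtrl and 62.9, 69.2 and 72.0 CPM in siAldoa, a log2 fold change of -2.96 ± 0.052. Of the fibroblast markers, 9 of 10 were in the table, of which 4 fell (Col1a2 and Col1a1 the most) and 4 rose (Pdgfrb and Pdgfra the most). Epithelial, immune and endothelial markers in the table (10 of 15) lay at 7.39 CPM or lower in every library, with summed levels of 6.57 to 11.1 CPM per list in siCtrl and 1.83 to 9.18 CPM in siAldoa. Of these 10 low genes Cdh1 fell and Krt8 passed the test with limma (adjusted p = 0.045), with 0 to 6 reads per library, overlapping groups and an adjusted p of 0.11 in edgeR. Within each group, replicates 1 and 2 differed only slightly more than read sampling (chi-square per degree of freedom 1.12 in siCtrl and 1.11 in siAldoa), and replicate 3 stood apart from them (2.07 to 3.24). The study calls the replicates biological, but the sources used here do not say that they were separate cultures, so p-values measure the spread between these libraries. For replicate 1 of both groups spike-in RNA was added at lysis, and for the other replicates after RNA extraction.

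Most of the 60S assembly factors were lower in siAldoa, by a modest amount. With limma, 28 of the 55 members fell, 0 rose and 27 did not pass the test, beside 10.0% of all genes called lower and 10.4% called higher. At an unadjusted p under 0.05 there were 33 lower and 1 higher (Mdn1), beside 2725 lower and 2787 higher of all 18001 genes. edgeR called 30 lower and 0 higher, beside 10.4% and 10.7% of all genes. DESeq2 called 18 lower and 0 higher, beside 1117 lower (9.53%) and 1066 higher of the 11717 genes it tested. The members are well expressed, and calls are more frequent among such genes. In the 7495 genes with a mean of at least 25 CPM, which include 54 of the members, 20.1% were called lower and 18.0% higher. The members were chosen with earlier results of these data known, so these shares describe the list and are not a test of it.

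The log2 fold change was below 0 in 50 members and above 0 in 5 (Mdn1, Sdad1, Noc3l, Urb1 and Rrp1). Its median was -0.18, against -0.0023 over all genes, and the median member in siAldoa stood at 87.9% of its siCtrl mean. Between libraries of the same number the median was -0.19, -0.16 and -0.16. The range ran from -0.62 for Mettl18, a gene with few reads, to 0.16 for Mdn1. In 32 members every siAldoa library was under every siCtrl library, beside 17.1% of all genes, and in Mdn1 every siAldoa library was over every siCtrl library, beside 16.7%. In the other 22 members the groups overlapped. The 17.1% and 16.7% are over genes of all levels, and shares among genes of at least 25 CPM were not computed. The exact permutation test of a single gene (two-sided) cannot give a p under 0.10 with 3 libraries against 3, and it gave that value for the 33 members without overlap. Summed over the 55 genes, the level was 7877, 7832 and 7923 CPM in siCtrl and 7134, 6927 and 7154 CPM in siAldoa.

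**Figure D1:**
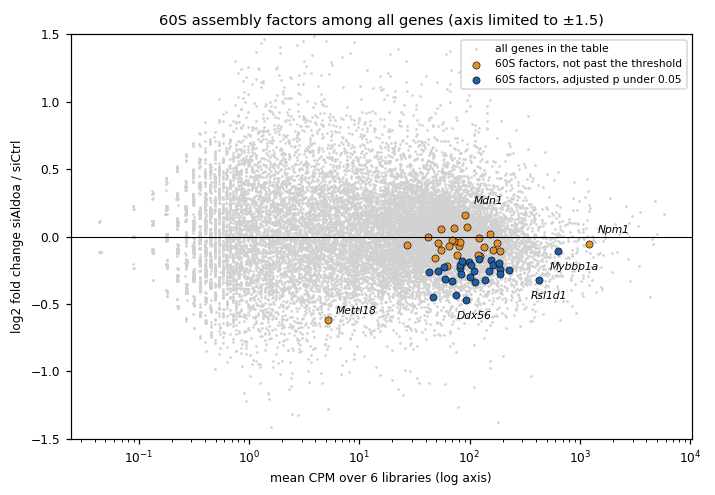
Each point is a gene, with its mean CPM over the 6 libraries on a log x axis and its log2 fold change (siAldoa against siCtrl) on the y axis, limited to ±1.5, which leaves 30 genes outside. Grey points are all genes, blue points the 28 members called lower and orange points the 27 not called; most members sit below 0 at middle to high levels, with Mdn1 above 0 and Mettl18 alone at a low level.

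Relative to the length of their exons, the members covered a wide range of levels. Npm1, an abundant nucleolar chaperone, was at the top with 461 CPM per kb of merged exons in siCtrl, followed by Rsl1d1 (212), Mybbp1a (114), Rrs1 (102) and Eif6 (73.8). Mdn1 (3.92) and Mettl18 (4.33) were at the bottom. The 3 rixosome core genes lay close to each other, with Pelp1 at 25.6, Tex10 at 17.7 and Wdr18 at 14.4 CPM per kb. The PeBoW genes were spread further, with Bop1 at 55.4, Pes1 at 30.0 and Wdr12 at 7.46 CPM per kb, the last over a long set of annotated exons. Lengths come from GENCODE gene models, so the level of a gene with long, rarely used exons is understated.

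**Figure D2:**
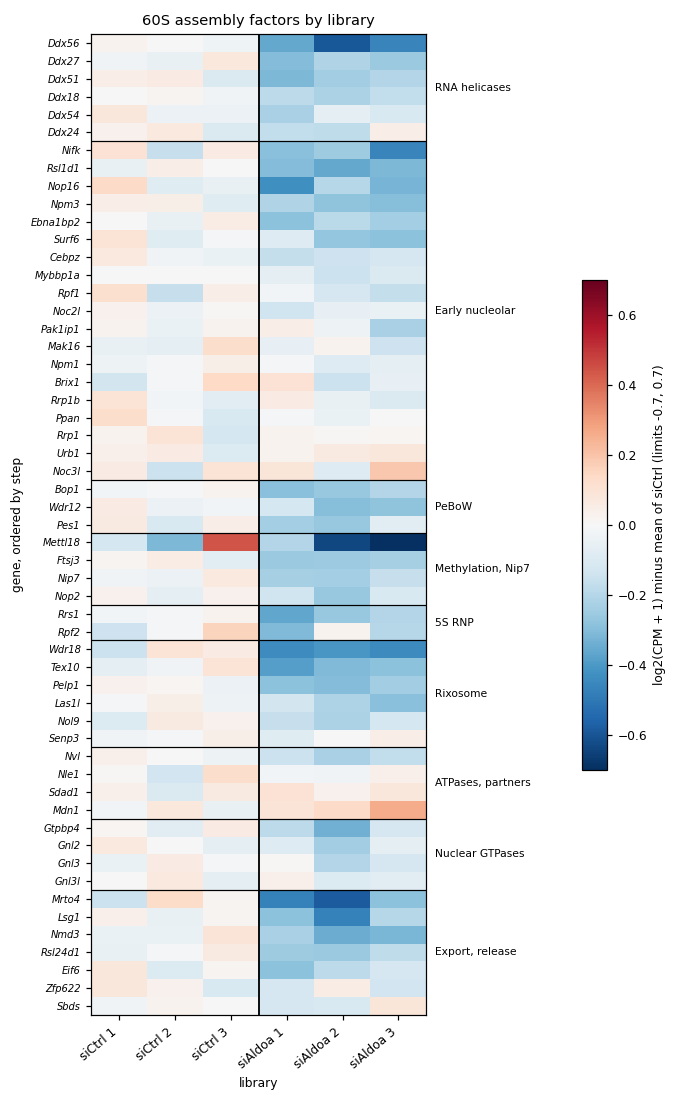
Rows are the 55 genes in order of step, columns the 6 libraries, and colour is log2(CPM + 1) minus the siCtrl mean of the gene, blue for lower and red for higher, with the scale ending at ±0.7. The siAldoa columns are blue in most rows, and the rows of Mdn1, Sdad1, Urb1, Rrp1 and Noc3l are among those that are not.

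The DEAD-box RNA helicases of the large subunit unwind RNA in early particles. Of these 6 genes 4 fell (Ddx56, Ddx27, Ddx51 and Ddx18), beside 20.1% of genes with a mean of at least 25 CPM. Ddx54 and Ddx24 did not pass the test. The median log2 fold change was -0.22, and the summed level was 649, 645 and 624 CPM in siCtrl and 537, 538 and 569 CPM in siAldoa. Ddx56 stood at 111, 109 and 107 CPM in the siCtrl libraries and at 84.7, 71.6 and 78.6 CPM in the siAldoa libraries, a log2 fold change of -0.47 ± 0.066 (adjusted p = 1.0e-05). It lies at chr11:6258919-6267772 on the minus strand (GRCm38). In siCtrl Ddx27 was at 118, 115 and 126 CPM, against 96.6, 103 and 99.5 CPM in siAldoa (log2 fold change -0.26 ± 0.059, adjusted p = 0.0023). For Ddx51 the values were 58.1, 58.5 and 52.4 CPM in siCtrl and 45.1, 47.3 and 48.7 CPM in siAldoa (log2 fold change -0.25 ± 0.080, adjusted p = 0.025). With the replicate number as a block the adjusted p of Ddx51 was 0.051, which did not pass the test. In all 3 genes the groups were separated, most widely in Ddx56, where the siAldoa mean was 72.0% of that in siCtrl. Ddx18 had 105, 106 and 103 CPM in siCtrl and 92.6, 90.1 and 93.2 CPM in siAldoa (log2 fold change -0.19 ± 0.058, adjusted p = 0.020). The libraries of Ddx18 lay close together on both sides, with an SD of 1.51 CPM in siCtrl and 1.66 CPM in siAldoa. Ddx54 (log2 fold change -0.13 ± 0.069, adjusted p = 0.19) had groups that did not overlap, and in Ddx24 (log2 fold change -0.10 ± 0.061) they did, with siAldoa replicate 3 at 174 CPM.

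Early nucleolar factors were the largest set, with 6 of 19 (31.6%) called lower and 13 not called. Among genes with a mean of at least 25 CPM the share called lower was 20.1%. The median log2 fold change of the early set was -0.081. The early factors that fell were Nifk, Rsl1d1, Nop16, Npm3, Ebna1bp2 and Mybbp1a. Rsl1d1 stood at 462, 495 and 479.9 CPM in the siCtrl libraries and at 388, 373 and 385 CPM in the siAldoa libraries, a log2 fold change of -0.32 ± 0.039 (adjusted p = 1.1e-06). Rsl1d1 encodes a nucleolar protein with an L1-type ribosomal domain, at chr16:11192970-11203331 on the minus strand (GRCm38), and it stayed past the threshold in all 17 alternative settings tried. In siCtrl Nifk was at 134, 112 and 130.4 CPM, against 102, 105 and 90.6 CPM in siAldoa (log2 fold change -0.33 ± 0.070, adjusted p = 0.0012). Nifk, which binds the proliferation antigen Ki-67, had more spread in siCtrl (SD 12.2 CPM) than most members, without overlap between the groups. For Nop16 the values were 73.1, 62.6 and 64.0 CPM in siCtrl and 49.1, 57.7 and 52.9 CPM in siAldoa (log2 fold change -0.32 ± 0.081, adjusted p = 0.0064). Npm3 had 48.8, 48.7 and 44.4 CPM in siCtrl and 40.7, 38.8 and 38.2 CPM in siAldoa (log2 fold change -0.26 ± 0.085, adjusted p = 0.030). In siCtrl Ebna1bp2 was at 205, 198 and 213 CPM, against 168, 179.9 and 174 CPM in siAldoa (log2 fold change -0.24 ± 0.049, adjusted p = 8.4e-04). These 3 nucleolar proteins also kept their groups apart, Ebna1bp2 being a scaffold of early particles and Npm3 a partner of Npm1 from the nucleoplasmin family. Mybbp1a stood at 663, 663 and 665 CPM in the siCtrl libraries and at 633, 597 and 618 CPM in the siAldoa libraries, a log2 fold change of -0.11 ± 0.034 (adjusted p = 0.025). The change in Mybbp1a, a nucleolar Myb-binding protein, was the smallest of all called members, and its siCtrl libraries had an SD of 1.35 CPM.

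The rest of the early set did not pass the test. Surf6 (log2 fold change -0.22 ± 0.077, adjusted p = 0.051) and Cebpz (log2 fold change -0.14 ± 0.055, adjusted p = 0.069) came nearest, both with groups that did not overlap. Cebpz acts with Noc2l, which had a log2 fold change of -0.08 ± 0.053, and that of Noc3l, another member of the Noc family, was 0.06 ± 0.080. For Npm1 the values were 1199, 1220 and 1264 CPM in siCtrl and 1216, 1154 and 1176 CPM in siAldoa (log2 fold change -0.05 ± 0.031, adjusted p = 0.26). The groups of Npm1 overlapped, and its reads may be shared with pseudogenes of near-identical sequence that are also in the table. Rpf1, Pak1ip1, Mak16, Brix1, Rrp1b, Ppan, Rrp1 and Urb1 had log2 fold changes between -0.10 and 0.06, with overlapping groups in each. The paralogs Rrp1 and Rrp1b had log2 fold changes of 0.02 ± 0.056 and -0.03 ± 0.071, and the paralogs Npm1 and Npm3 of -0.05 and -0.26.

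The PeBoW complex is made of Pes1, Bop1 and Wdr12 and is needed to mature the precursor of the 28S and 5.8S RNAs. Of its 3 genes 2 fell, beside 20.1% of genes with a mean of at least 25 CPM. Bop1 and Wdr12 passed the test, and Pes1 did not. Bop1 stood at 162, 163 and 166 CPM in the siCtrl libraries and at 134, 136 and 142 CPM in the siAldoa libraries, a log2 fold change of -0.25 ± 0.051 (adjusted p = 6.9e-04). It lies at chr15:76452989-76477277 on the minus strand (GRCm38). Wdr12 had 92.9, 86.7 and 88.1 CPM in siCtrl and 81.8, 72.4 and 73.3 CPM in siAldoa (log2 fold change -0.23 ± 0.067, adjusted p = 0.015). Pes1 stood at 94.5, 84.0 and 93.7 CPM in the siCtrl libraries and at 76.6, 75.1 and 86.1 CPM in the siAldoa libraries, a log2 fold change of -0.19 ± 0.070 (adjusted p = 0.055). Bop1 and Wdr12 were separated between the groups, while in Pes1 siCtrl replicate 2 (84.0 CPM) lay under siAldoa replicate 3 (86.1 CPM). For Pes1 edgeR gave an adjusted p of 0.045. The summed level of the 3 genes was 349, 334 and 348 CPM in siCtrl and 292, 284 and 301 CPM in siAldoa.

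Among the 4 modification factors, Ftsj3, Nip7 and Nop2 fell (75%) and Mettl18 did not pass the test. Of all genes 10.0% were called lower, and 20.1% at a mean of at least 25 CPM, a level Mettl18 did not reach. Ftsj3 stood at 253, 259 and 237 CPM in the siCtrl libraries and at 208, 209 and 212 CPM in the siAldoa libraries, a log2 fold change of -0.25 ± 0.046 (adjusted p = 3.0e-04). In siCtrl Nip7 was at 108, 107 and 116 CPM, against 93.6, 93.5 and 98.5 CPM in siAldoa (log2 fold change -0.21 ± 0.059, adjusted p = 0.012). For Nop2 the values were 168, 157 and 168 CPM in siCtrl and 149, 136 and 153 CPM in siAldoa (log2 fold change -0.17 ± 0.055, adjusted p = 0.029). Ftsj3 is a methyltransferase of precursor RNA, Nop2 a methyltransferase of 28S rRNA and Nip7 a small protein that binds the precursor. In all 3 the groups were apart. Mettl18 stood at 5.75, 4.92 and 8.995 CPM in the siCtrl libraries and at 5.40, 3.74 and 2.62 CPM in the siAldoa libraries, a log2 fold change of -0.62 ± 0.26 (adjusted p = 0.10). Mettl18, which methylates a histidine of the ribosomal protein Rpl3, had the lowest log2 fold change of the members but only 10 to 34 reads per library, and its groups overlapped, with siCtrl replicate 2 under siAldoa replicate 1. Without siCtrl replicate 3 its log2 fold change was -0.40 and without siAldoa replicate 3 it was -0.42, and Ddx56 was then lower, at -0.49 and -0.48. Of the factors that dock the 5S RNP, Rrs1 fell and its partner Rpf2 did not pass the test. That is 1 of 2 (50%), beside 20.1% of genes with a mean of at least 25 CPM. Rrs1 stood at 206, 207 and 213 CPM in the siCtrl libraries and at 162, 174 and 181 CPM in the siAldoa libraries, a log2 fold change of -0.28 ± 0.050 (adjusted p = 2.1e-04). Rpf2 had a log2 fold change of -0.16 ± 0.10 (adjusted p = 0.27) with overlapping groups. The Rrs1 groups did not overlap.

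The rixosome removes the ITS2 spacer and remodels the nuclear particle. With limma 5 of its 6 members were called lower, beside 20.1% of genes with a mean of at least 25 CPM. edgeR called the same number and DESeq2 called 3, and differences between steps were not tested. The median log2 fold change was -0.25, and the summed level was 575, 609 and 607 CPM in siCtrl and 510, 511 and 521 CPM in siAldoa. Wdr18 stood at 77.5, 92.2 and 89.95 CPM in the siCtrl libraries and at 63.4, 64.9 and 63.1 CPM in the siAldoa libraries, a log2 fold change of -0.43 ± 0.072 (adjusted p = 1.0e-04). Tex10 had 73.7, 76.0 and 82.8 CPM in siCtrl and 59.1, 62.3 and 63.4 CPM in siAldoa (log2 fold change -0.33 ± 0.071, adjusted p = 0.0015). In siCtrl Pelp1 was at 93.1, 91.9 and 88.4 CPM, against 74.5, 73.5 and 76.7 CPM in siAldoa (log2 fold change -0.28 ± 0.063, adjusted p = 0.0021). The 3 core subunits all fell, with separate groups in each and with siAldoa means at 73.7%, 79.4% and 82.2% of siCtrl. Wdr18 lies at chr10:79960152-79970203 on the plus strand (GRCm38). For Las1l the values were 87.6, 90.8 and 86.0 CPM in siCtrl and 80.4, 75.6 and 71.7 CPM in siAldoa (log2 fold change -0.21 ± 0.066, adjusted p = 0.022). Nol9 had 122, 136 and 133 CPM in siCtrl and 116, 111 and 119 CPM in siAldoa (log2 fold change -0.17 ± 0.058, adjusted p = 0.041). Las1l is the endonuclease that cuts ITS2 and Nol9 the kinase that acts on the cut end, with siAldoa means at 86.1% and 88.8% of siCtrl. With the replicate block Nol9 did not pass the test (adjusted p = 0.071). Senp3, a SUMO protease that acts on Pelp1, had a log2 fold change of -0.01 ± 0.056 (adjusted p = 0.91), with group means of 123 and 122 CPM. Whether Senp3 differed from the other rixosome genes was not tested.

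**Figure D3:**
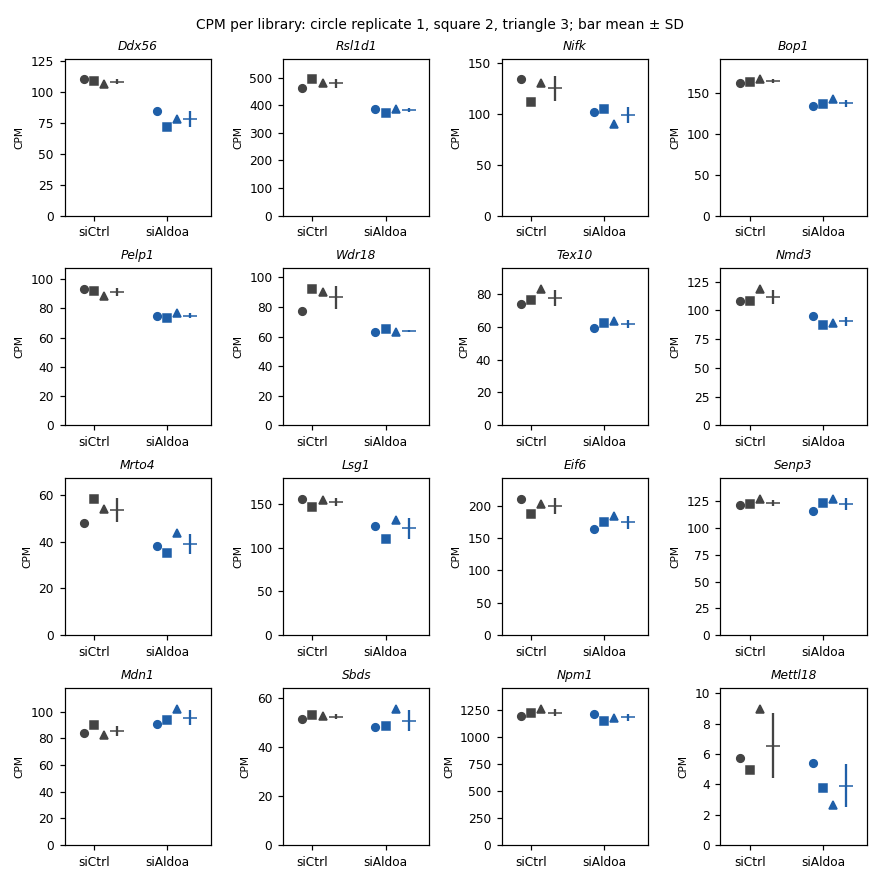
CPM is plotted per library on a y axis from 0 for 16 members, with siCtrl in grey and siAldoa in blue, a circle, square or triangle for replicate 1, 2 or 3, and a bar for the mean ± SD. The groups are apart in the 11 called genes from Ddx56 to Eif6 and in Mdn1, where siAldoa is above, and they overlap in Senp3, Sbds, Npm1 and Mettl18.

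Of the 4 AAA-type ATPases and partners only Nvl fell (25%), beside 20.1% of genes with a mean of at least 25 CPM. Nle1, Sdad1 and Mdn1 did not pass the test. With the replicate block Nvl did not pass either (adjusted p = 0.060). Nvl stood at 92.3, 89.9997 and 87.6 CPM in the siCtrl libraries and at 81.0, 76.7 and 79.6 CPM in the siAldoa libraries, a log2 fold change of -0.18 ± 0.062 (adjusted p = 0.039). Mdn1 stood at 84.4, 89.9997 and 82.3 CPM in the siCtrl libraries and at 90.9, 93.8 and 102 CPM in the siAldoa libraries, a log2 fold change of 0.16 ± 0.065 (adjusted p = 0.091). Mdn1 is the giant ATPase that pulls factors off the nuclear particle, and it was the only member with all siAldoa libraries above all siCtrl libraries. Nle1, on which Mdn1 acts, had a log2 fold change of -0.0030 ± 0.089, and Sdad1 of 0.07 ± 0.063, both with overlapping groups. The summed level of the 4 genes overlapped between the groups, at 313, 304 and 312 CPM in siCtrl and 312, 305 and 322 CPM in siAldoa.

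Of the 4 nuclear GTPases only Gtpbp4 fell (25%), beside 20.1% of genes with a mean of at least 25 CPM. Gnl2, Gnl3 and Gnl3l did not pass the test. Gtpbp4 stood at 177, 167 and 183 CPM in the siCtrl libraries and at 154, 139 and 161 CPM in the siAldoa libraries, a log2 fold change of -0.21 ± 0.057 (adjusted p = 0.0090). The siAldoa libraries of Gtpbp4, which acts from the nucleolus to the cytoplasm, were spread (SD 11.5 CPM) but all below siCtrl. The log2 fold change was -0.13 ± 0.060 for Gnl2, -0.11 ± 0.054 for Gnl3 (nucleostemin) and -0.04 ± 0.052 for its paralog Gnl3l, with overlapping groups in each. In these 3 genes siAldoa replicate 2 was the lowest of the 6 libraries, at 106, 169 and 169 CPM. The summed level of the 4 GTPases was 678, 685 and 668 CPM in siCtrl and 653, 583 and 632 CPM in siAldoa.

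Export and cytoplasmic release factors gave 5 genes of 7 called lower, beside 20.1% of genes with a mean of at least 25 CPM. The median log2 fold change of the 7 was -0.23. Nmd3, Lsg1, Mrto4, Rsl24d1 and Eif6 fell, and Sbds and Zfp622 did not pass the test. Nmd3 is the adaptor for nuclear export and Lsg1 the GTPase that releases it in the cytoplasm. Nmd3 stood at 108, 108 and 119 CPM in the siCtrl libraries and at 94.99, 87.1 and 89.0 CPM in the siAldoa libraries, a log2 fold change of -0.30 ± 0.062 (adjusted p = 0.0011). In siCtrl Lsg1 was at 156, 146 and 154 CPM, against 124, 109 and 132 CPM in siAldoa (log2 fold change -0.32 ± 0.062, adjusted p = 5.0e-04). For Mrto4 the values were 47.9, 58.3 and 54.0 CPM in siCtrl and 38.1, 35.3 and 43.5 CPM in siAldoa (log2 fold change -0.45 ± 0.094, adjusted p = 0.0012). The siAldoa means of Nmd3 and Lsg1 stood at 81.2% and 80.2% of siCtrl, and Mrto4, the placeholder for the stalk protein P0, at 72.9%. Nmd3, Lsg1 and Mrto4 had their lowest value in siAldoa replicate 2, and all 3 had separate groups. Rsl24d1 had 61.1, 62.6 and 66.1 CPM in siCtrl and 53.2, 52.7 and 55.8 CPM in siAldoa (log2 fold change -0.23 ± 0.074, adjusted p = 0.029). In siCtrl Eif6 was at 210.4, 186 and 202 CPM, against 163, 175 and 183 CPM in siAldoa (log2 fold change -0.20 ± 0.054, adjusted p = 0.011). Rsl24d1 occupies the site of Rpl24 until the cytoplasm, and Eif6 keeps the new subunit from joining a 40S subunit. For Sbds the values were 51.5, 53.3 and 52.6 CPM in siCtrl and 48.3, 48.6 and 55.8 CPM in siAldoa (log2 fold change -0.05 ± 0.081, adjusted p = 0.76). Sbds, which helps to release Eif6, had overlapping groups, with siAldoa replicate 3 above all siCtrl libraries. Zfp622, a late cytoplasmic factor, had a log2 fold change of -0.07 ± 0.076 with overlapping groups. The summed level of the 7 genes was 704, 683 and 709 CPM in siCtrl and 583, 577 and 620 CPM in siAldoa.

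**Figure D4:**
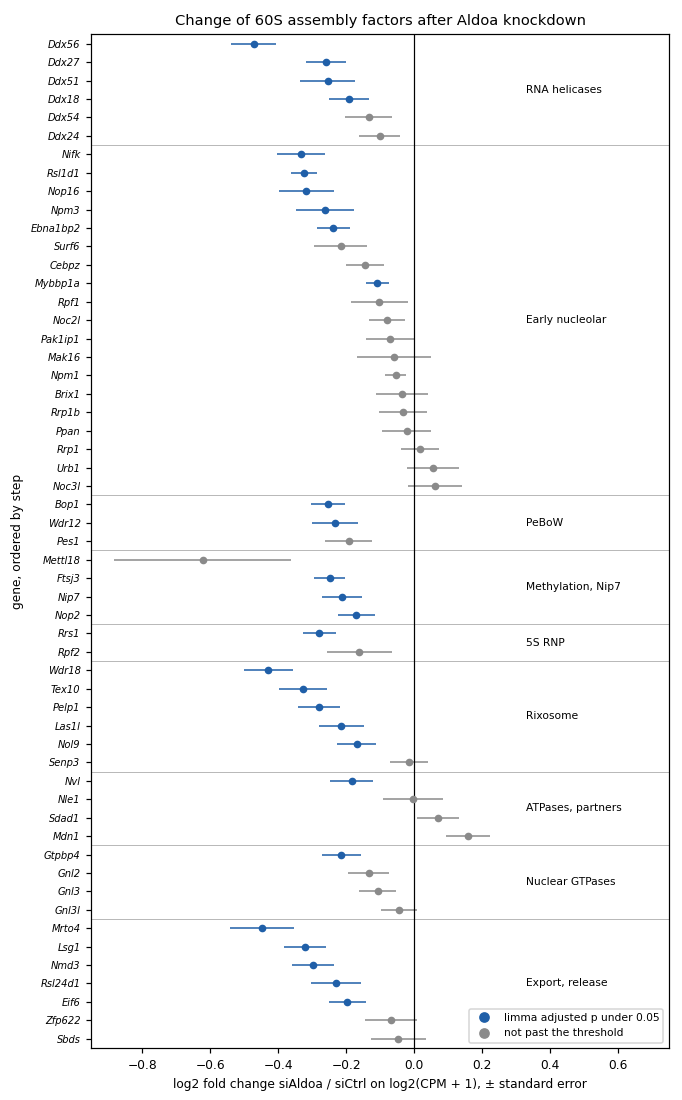
The x axis gives the log2 fold change of each of the 55 genes (siAldoa against siCtrl, on log2(CPM + 1)) with its standard error as a bar, and rows are ordered by step. Blue points are the 28 genes called with limma and grey points the 27 others; in the rixosome row group 5 of 6 points are blue, and among the ATPases and partners 1 of 4.

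Many of the calls were lost when 1 library was left out. The share of all genes called lower also went from 10.0% to between 7.32% and 7.62%. With fewer libraries, a lost call does not by itself show that it rested on the library left out. Without siAldoa replicate 2, 15 members were called lower, and Ddx18, Ddx51, Npm3, Mybbp1a, Wdr12, Nop2, Nip7, Las1l, Nol9, Nvl, Gtpbp4, Rsl24d1 and Eif6 were lost. Without siCtrl replicate 1, 17 were called, and Ddx18, Ddx51, Nop16, Npm3, Mybbp1a, Wdr12, Nop2, Las1l, Nvl, Gtpbp4 and Eif6 were lost. Without siCtrl replicate 2, 21 were called, and Ddx18, Ddx51, Npm3, Mybbp1a, Las1l, Nol9, Nvl and Rsl24d1 were lost while Pes1 was gained. Without siCtrl replicate 3, 20 were called, and Mybbp1a, Nop2, Nip7, Nol9, Nvl, Gtpbp4, Rsl24d1 and Eif6 were lost. Without siAldoa replicate 1, 21 were called, and Ddx51, Nop16, Nop2, Nip7, Nol9, Nvl, Rsl24d1 and Eif6 were lost while Surf6 was gained. Without siAldoa replicate 3, 23 were called, and Npm3, Mybbp1a, Wdr12, Las1l, Nol9 and Nvl were lost while Pes1 was gained. Without both libraries of replicate 3, which leaves 2 per group, 5 members were called lower, beside 2.89% of all genes. The median log2 fold change over the 55 was then -0.20. With replicates 1 and 2 averaged within each group 20 were called, beside 8.39% of all genes. The log2 fold change of the 28 called genes kept its sign in every setting tried. All 28 had separate groups, so leaving out or averaging libraries could not reverse it. Rsl1d1 passed in 17 of 17 settings, Ddx56 in 16, and Bop1, Rrs1 and Wdr18 in 15, while Nol9 passed in 3 and Nvl in 4. The log2 fold change of Mybbp1a ranged from -0.13 to -0.032, Eif6 from -0.25 to -0.11, Nop16 from -0.42 to -0.19 and Mettl18, which was not called, from -0.89 to -0.20 over these settings.

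The members lie on 18 chromosomes and the called ones on 15. Of the 55, 21 share exonic sequence with another annotated gene, mostly on the opposite strand (19), and 15 share a stretch of at least 200 bases at 90% identity with a transcript of another gene in the table, repeats included. Because the use of strand and of reads that map to several places in counting is not given in the sources used here, reads of these genes may be shared, as for Pes1, Rrs1, Gtpbp4, Mrto4, Eif6 and Npm3 with pseudogenes. Of the 27 members with neither, 15 were called lower, Ddx56, Rsl1d1, Wdr18, Pelp1, Nmd3 and Lsg1 among them. Of the 15 members with such a stretch, 10 were called lower. Over all genes the share called lower was 10.0%, and at a mean of at least 25 CPM 20.1%.

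Other genes of ribosome production were read from lists beside these results. Of 21 further 60S factors in the table (25 on the list), 6 fell (28.6%) and 0 rose, with a median log2 fold change of -0.099. At an unadjusted p under 0.05 there were 8 lower and 0 higher in that list, edgeR called 7 and 0, and DESeq2 3 and 0. Pa2g4, a growth-regulated nucleolar protein, stood at 389, 376 and 368 CPM in siCtrl and 276, 269 and 279.6 CPM in siAldoa (log2 fold change -0.46 ± 0.041). For Lyar, another nucleolar protein, the values were 119, 115 and 123 CPM in siCtrl and 88.0, 79.9 and 92.7 CPM in siAldoa (log2 fold change -0.45 ± 0.064). Of the proteins of the 60S subunit itself, 42 of 47 on the list were in the table, and 2 fell, Rpl27 (log2 fold change -0.26 ± 0.055) and Rpl8 (-0.13 ± 0.033), and 0 rose, with a median log2 fold change of 0.004. In that list 4 genes were lower and 5 higher at an unadjusted p under 0.05, and edgeR and DESeq2 each called 2 lower and 0 higher. Of the small subunit processome, 43 of 47 genes were in the table, of which 17 fell and 2 rose (Imp4 and Dhx37), with a median log2 fold change of -0.14, and Wdr43 (-0.58 ± 0.051) was the lowest. Over all genes, 10.0% were called lower and 10.4% higher, and at a mean of at least 25 CPM 20.1% and 18.0%. At an unadjusted p under 0.05, 2725 of all 18001 genes were lower and 2787 higher. The differences between these lists were not tested.

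Myc and most of the listed proliferation genes fell, like the 60S factors. Of 14 proliferation genes 10 fell and 0 rose, beside 20.1% and 18.0% of genes with a mean of at least 25 CPM. There were 11 lower and 0 higher at an unadjusted p under 0.05, 10 lower with edgeR and 9 with DESeq2. The median log2 fold change was -0.33. Those that fell were Mcm2 to Mcm7, Rrm2, Pcna, Ccna2 and Cdk1. Mki67 (-0.08 ± 0.040), Top2a (-0.04 ± 0.039), Ccnb1 (-0.03 ± 0.060) and Tyms (-0.25 ± 0.10) were not called. The summed level of the 14 genes was 2839 to 2862 CPM in siCtrl and 2263 to 2344 CPM in siAldoa, and Rrm2 (log2 fold change -0.80 ± 0.059) and Mcm5 (-0.59 ± 0.049) were lowest. Myc, a transcription factor that drives ribosome production genes, stood at 168, 165 and 177 CPM in siCtrl and 138, 130.4 and 148 CPM in siAldoa, a log2 fold change of -0.29 ± 0.055 (adjusted p = 4.0e-04). The part of Myc and of proliferation in the change of the 60S factors was not tested.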

How the data were processed

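The 6 libraries were grouped by their labels into siCtrl and siAldoa. Per the labels and methods, the authors selected poly(A) RNA, made libraries with the NEBNext Ultra Directional kit, aligned reads to mm10 with Bowtie2 (version 2.2.7), subsampled them to equal numbers and counted them per gene. The deposited values are CPM, scaled by the authors to effective library sizes. The annotation release, use of strand and handling of multi-mapping reads are not given in the sources used here. The stated removal of genes with fewer than 12 reads was checked, and 1834 such genes were present. A deposited edgeR comparison (log2 fold changes, mean log2 CPM, p-values) was not used, nor were spike-ins. The table held 200 rows without a symbol, which stayed in the tests under their gene identifiers.

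The test between siAldoa and siCtrl was limma (3.58.1, in R 4.3.3), two-sided, applied to log2(CPM + 1) with its prior variance following the mean level. This scale understates changes of low genes. Reads were recovered by dividing by the value of 1 read (100% of values whole within 0.001 reads), and edgeR (4.0.16, quasi-likelihood) and DESeq2 (1.42.0) were run on them. Reads carry no molecular identifiers, so depth covers counting error only. Other settings were a pseudocount of 0.1, a filter on the lowest quartile, no trend, quantile normalization, a replicate block, libraries left out and, added after seeing the data, replicates 1 and 2 averaged. Scripts were tested on simulated data. Coordinates came from GENCODE M21 on GRCm38, in which 17932 of 18001 identifiers matched, and near-identical transcripts from blastn (2.17.0). No cell of the table came from another series' samples (0 such columns).

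The members and lists were chosen with earlier results of these data known. Values per library are given for every called member and, whatever their p, for Pes1, Bop1, Wdr12, Npm1, Mdn1, Nmd3, Eif6, Sbds and Mettl18. From other lists at most the 2 lowest and 2 highest called genes were named, except that all proliferation genes were named. Adjusted p-values are from limma unless another tool is named. Protein sequences planned for paralogs were not used here.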

Additional observations from a re-analysis of the deposited data

How the results depend on the processing

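No member was called higher and the median of the members stayed below 0 in all 17 settings tried. Of all genes, 3676 were called, against 1440 without the mean-variance trend, 2183 with DESeq2 and 1014 to 2813 with 1 library or 1 replicate number left out. Of the members, 28 were called lower, against 3 without the trend (Ddx56, Rsl1d1 and Wdr18), 18 with DESeq2 and 5 to 23 with libraries left out. The share of all genes called lower was 10.0% in the main fit and 3.42% without the trend. It was 9.53% of the genes tested with DESeq2 and 2.89% to 7.62% with libraries left out. Leaving out replicate number 1, 2 or 3 in both groups left 7, 6 and 5 members, with 2 libraries per group. The shares of all genes called lower were then 3.84%, 3.54% and 2.89%. The median of the members ranged from -0.20 to -0.16 when libraries were left out. With replicates 1 and 2 averaged to 1 replicate per group, 20 members and 3089 genes were called, with 8.39% of all genes called lower. The other settings gave 25 to 30 members, beside 8.66% to 14.4% of the genes tested called lower. The log2 fold change kept its sign in the 33 members given per library. In the 28 called members and Mdn1, the groups were separate, so leaving libraries out could not reverse it. With libraries left out, both signs occurred in Noc3l, Mak16, Rrp1, Rrp1b, Urb1, Pak1ip1, Brix1, Ppan, Senp3, Nle1 and Gnl3l, none of them called. At 3 reads per 0.786 to 0.822 CPM, depth limits Mettl18 most.

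The replicate numbers were tested as a pairing. After the group means were subtracted, libraries that share a number, across 10059 genes with a mean of at least 10 CPM, correlated by 0.030, 0.014 and 0.13 for replicates 1, 2 and 3, so the numbers were not taken as pairs. The spike-in step ties replicate 1 of both groups to one handling and replicates 2 and 3 to another, and siCtrl replicate 2 correlated best with siAldoa replicate 1 (0.074). Between the groups, replicates 1 and 2 correlated positively in every combination (0.014 to 0.074). Replicate 3 of each group correlated negatively with replicates 1 and 2 of the other group (-0.094 to -0.046). The main fit has no term for a difference shared by replicate 3 of both groups, while the replicate block has one. With the replicate block 3170 genes and 25 members were called, and Ddx51, Nol9 and Nvl were not among them. That fit called 8.66% of all genes lower.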
